A study of Mus musculus with 4 samples.

Results

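The 5 genes described here encode osteoprotegerin (Tnfrsf11b), RANKL (Tnfsf11), RANK (Tnfrsf11a), TRAIL (Tnfsf10) and the TRAIL death receptor (Tnfrsf10b). They were followed in pancreatic islets, which hold the endocrine cells of the pancreas, of WT mice and of mice carrying a GPR41 transgene (41 Tg, written Tg here). The receptor GPR41, the product of Ffar3, responds to short-chain fatty acids. Each gene was found by its symbol in the platform annotation, and all 5 had a single probeset (probes summarised to 1 value per transcript) paired with that symbol alone, out of 22180 genes so measured. All mice were C57BL/6 aged 5 to 6 months, the WT mice were littermates, and no islet was given a further treatment beyond RPMI medium. Each group holds 2 arrays that the titles call biological replicates. The labels give neither the promoter nor the cell type that drives the transgene, nor the sex of the mice, nor whether an array holds islets of 1 mouse or of several, so p-values measure only the spread between these arrays.

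Osteoprotegerin is a secreted decoy receptor of the tumour necrosis factor (TNF) receptor family that carries no membrane anchor. It binds RANKL and keeps it from its signalling receptor RANK, which drives osteoclast formation in bone through TRAF adaptor proteins and NF-kB. It also binds TRAIL, a ligand that triggers apoptosis through a death receptor, FADD and caspase 8. In islets, osteoprotegerin is known as a gene induced by pregnancy and by lactogenic hormones, and blocking RANKL or RANK has been reported to release beta cell replication in mice.

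The values are log2 expression values of the deposited table, and differences are Tg minus WT. Medians of the arrays ranged from 6.43 to 6.47. Ffar3, the gene of the transgene, stood at 7.09 and 6.47 in WT and at 11.02 and 10.98 in Tg, so the arrays follow their labels. Islet hormone genes were near the top of the range in both groups, with WT means of 12.52 for Ins2, 13.63 for Gcg and 13.32 for Sst. Acinar and duct cell markers differed between the WT arrays: the mean of 8 measured acinar markers was 9.86 on WT replicate 1 and 10.70 on WT replicate 2, and that of 5 duct markers was 7.07 and 8.43.

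Osteoprotegerin was the member that changed. Tnfrsf11b measured 8.20 and 7.95 in WT against 11.08 and 10.94 in Tg. Both Tg arrays lay 2.74 or more above the higher WT array, while the WT arrays lay 0.24 apart and the Tg arrays 0.14. The mean rose from 8.08 ± 0.17 to 11.01 ± 0.10 (SD, n = 2 each), a 7.62-fold increase with a 95% confidence interval of 6.10 to 9.52 (log2 difference 2.93, SE 0.13, adjusted p = 0.0013). Among all 22180 genes the increase ranked 20 by size and 13 by p. On its own array the probeset moved from the 71.5 and 68.8 percentile of all probesets in WT to the 97.1 and 96.6 percentile in Tg. Over all genes, 199 passed the adjusted threshold of 0.05, which is 0.897% of those tested, with 0.672% higher and 0.225% lower in Tg, and 11.8% had an unadjusted p under 0.05. Without the variance moderation that limma applies across genes, the adjusted p of Tnfrsf11b was 0.472, and no gene passed (1928 had an unadjusted p under 0.05 there).

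**Figure D1:**
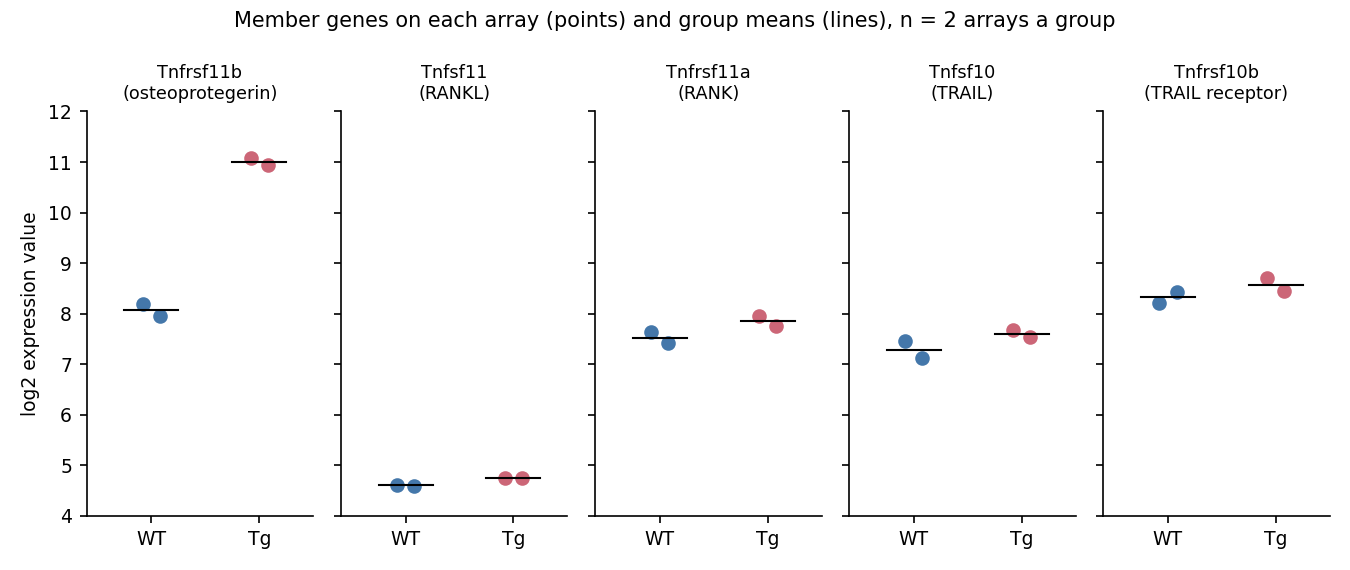
Log2 expression values of the 5 genes on each array (points), with group means as black lines; blue is WT, red is Tg, 2 arrays each. Tnfrsf11b sits near 8 in WT and near 11 in Tg, while the other 4 genes differ by 0.14 to 0.32 between the group means; levels of different genes are not comparable, since each probeset has its own brightness.

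RANKL, the ligand that osteoprotegerin holds back, was read by a dim probeset. Tnfsf11 measured 4.61 and 4.59 in WT and 4.74 and 4.75 in Tg, at the 17.8 to 21.0 percentile of the probesets of its array. The Tg arrays lay above the WT arrays by 0.14, and arrays within a group differed by 0.016 or less. The difference did not pass the test (0.14, SE 0.10, adjusted p = 0.658), and its 95% interval ran from 0.93-fold to 1.31-fold. The spread within groups was far below the SE because limma draws the variance of each gene towards that of all genes. No probe for background signal was analysed here, so whether Tnfsf11 transcripts were present cannot be told, and differences at such low signal can be compressed.

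RANK, the signalling receptor for RANKL, was read at a middle level. Tnfrsf11a measured 7.63 and 7.42 in WT and 7.95 and 7.74 in Tg. The groups did not overlap, but the gap of 0.11 between them was smaller than the distance of 0.21 between the WT arrays. The difference of 0.32 (SE 0.13) had an unadjusted p of 0.053 and did not pass over all genes (adjusted p = 0.430). The interval of the fold change was 0.996 to 1.57.

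TRAIL is the other ligand that osteoprotegerin binds. Tnfsf10 measured 7.46 and 7.12 in WT and 7.67 and 7.53 in Tg. The lower Tg array lay 0.08 above the higher WT array, against 0.34 between the WT arrays. The difference of 0.32 (SE 0.15) did not pass (adjusted p = 0.483; interval 0.97-fold to 1.60-fold). It was 0.15 without WT replicate 2 and 0.48 without WT replicate 1, so the size of this value rests on which WT array is used.

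The TRAIL death receptor showed the narrowest gap. Tnfrsf10b measured 8.21 and 8.43 in WT and 8.70 and 8.44 in Tg, and WT replicate 2 and Tg replicate 2 differed by 0.018. The difference of 0.25 (SE 0.14) did not pass (adjusted p = 0.563; interval 0.94-fold to 1.52-fold), and it was 0.13 without Tg replicate 1 and 0.38 without Tg replicate 2.

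All 5 genes were higher on both Tg arrays than on both WT arrays. Over all genes, 18.6% had groups that did not overlap with Tg the higher, and 45.7% had a difference above 0. The median difference of the 4 genes that did not pass was 0.29, against -0.02 over all genes. Their intervals leave room for increases of up to 1.31-fold to 1.60-fold and do not show that these genes were unchanged.

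The change of osteoprotegerin was set against that of each partner within the same array, as the log2 value of Tnfrsf11b minus that of the partner. Levels of different probesets cannot be compared, so only the shift of this value between the groups is read. Against RANKL it was 3.59 and 3.36 in WT and 6.33 and 6.19 in Tg, a shift of 2.79, or 6.90-fold in the ratio. The shift was 2.61 against RANK, 2.62 against TRAIL and 2.68 against the TRAIL receptor. In each of the 4 contrasts the Tg arrays lay apart from the WT arrays by more than the spread within groups (SD 0.16 in WT and 0.10 in Tg for the contrast with RANKL). An exact two-sided permutation test gave p = 0.333 for each contrast, which is the smallest value that 2 arrays against 2 allow. It therefore cannot tell these shifts from 0. The rise of Tnfrsf11b enters all 4 contrasts, so they are not independent.

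Other members of the TNF superfamily were taken from lists of 14 measured ligands and 25 measured receptors. Among the ligands, none passed over all genes (2 at an unadjusted p under 0.05, against 11.8% of all genes). Their median difference was -0.04 (0.05 without Tg replicate 2). Tnf, the inflammatory cytokine, was highest at 0.56 (SE 0.12, adjusted p = 0.135), and Tnfsf9 was lowest at -0.32 (SE 0.12, adjusted p = 0.366). Tnfsf15 stood at -0.27 (SE 0.11), and Fasl, the ligand of the Fas death receptor, at -0.14.

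Among the 25 receptors, 7 had an unadjusted p under 0.05 (11.8% over all genes), and the median was 0.11. None fell and 1 rose (0.672% over all genes). That gene was Tnfrsf9, a costimulatory receptor of T cells, at 6.39 and 6.14 in WT and 7.61 and 7.28 in Tg (difference 1.18, SE 0.16, adjusted p = 0.044). It did not pass when any single array was left out (1.01 to 1.35, adjusted p 0.075 to 0.209). Ngfr, the low-affinity neurotrophin receptor (1.23, SE 0.21, adjusted p = 0.087), and Tnfrsf13c, the BAFF receptor of B cells (1.08, SE 0.19, adjusted p = 0.087), did not pass. With a variance trend and a robust prior in limma both passed (adjusted p = 0.045 and 0.042), where 347 genes did in all. The difference of Ngfr was 1.53 without WT replicate 1 and 0.92 without WT replicate 2. Tnfrsf1a, the main receptor of TNF, was at 0.52 (SE 0.11, adjusted p = 0.136). The receptor median was 0.22 without WT replicate 2 and 0.04 without WT replicate 1.

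Mice have a pair of further TRAIL decoy receptors, which lack a signalling death domain. Tnfrsf22 measured 8.06 and 8.43 in WT and 8.03 and 7.92 in Tg (difference -0.27, SE 0.15, adjusted p = 0.577). Tnfrsf23 measured 9.23 and 10.21 in WT and 9.47 and 9.40 in Tg (difference -0.28, SE 0.31, adjusted p = 0.804). Its highest value was on WT replicate 2, the array with the higher duct and acinar markers, and its groups overlapped. Without that array the difference was 0.20, so its direction turned.

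**Figure D2:**
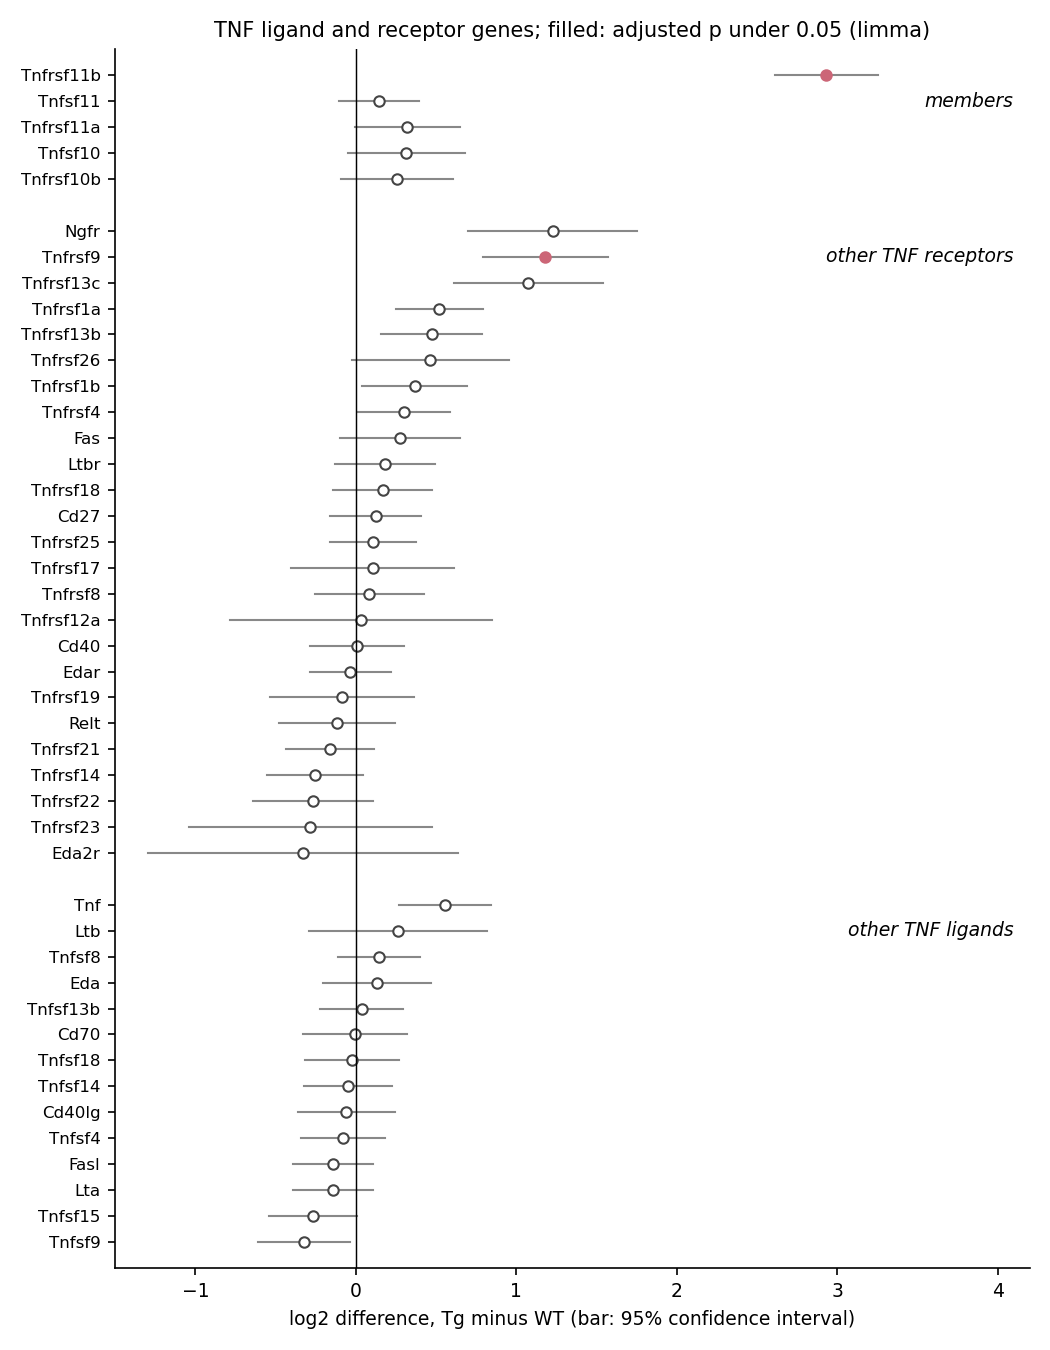
Log2 difference, Tg minus WT, with its 95% confidence interval for the 5 genes and for the other measured TNF receptors and ligands; filled points have an adjusted p under 0.05 in limma. Tnfrsf11b at 2.93 lies beyond every other plotted interval, and Tnfrsf9 at 1.18 is the other filled point.

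Genes that carry the signal of RANK and of TNF receptors to NF-kB showed no call. Of 22 measured members none passed (3 at an unadjusted p under 0.05, against 11.8% of all genes), and the median was -0.05. Tnip1, an inhibitor of NF-kB signalling, stood at 0.40 (SE 0.13), Traf1 at 0.41 (SE 0.16) and Traf5, an adaptor of TNF receptors, at -0.37 (SE 0.12). Traf6, the adaptor that RANK depends on, measured 9.49 and 9.42 in WT and 9.50 and 9.36 in Tg. Its difference of -0.03 had a 95% interval of -0.30 to 0.24.

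In the death receptor pathway below TRAIL, none of 21 measured members passed, with a median of -0.04. Of the 21, 4 had an unadjusted p under 0.05 (11.8% over all genes). Fadd, the adaptor of death receptors, stood at -0.30 (SE 0.12), and Casp8, the caspase it recruits, at 0.19 (SE 0.13). Bcl2l11, a pro-apoptotic gene, stood at -0.34 (SE 0.11) and Ripk3, a kinase of necroptosis, at 0.44 (SE 0.17). Mlkl, the executor of necroptosis, had the smallest p of the list (0.68, SE 0.13, adjusted p = 0.115) and measured 7.36 and 7.66 in WT against 8.18 and 8.21 in Tg.

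Targets of RANK in osteoclasts had 15 of 18 measured members above 0 (45.7% over all genes) and a median of 0.17. None passed the test, and 3 had an unadjusted p under 0.05 (11.8% over all genes). Atp6v0d2, a proton pump subunit (1.08, SE 0.20, adjusted p = 0.101), and Acp5, the tartrate-resistant acid phosphatase (0.84, SE 0.16, adjusted p = 0.107), were the highest, and macrophages express both. Ocstamp, a gene of osteoclast fusion, stood at 0.36 (SE 0.14). Nfatc1, the transcription factor of osteoclast formation, measured 8.28 and 8.55 in WT and 8.54 and 8.26 in Tg, with overlapping groups, a difference of -0.01 and an interval of -0.40 to 0.37. Markers of leukocytes and macrophages were above 0 for 15 of 15 measured members, and 1 of them rose, Coro1a (0.94, SE 0.10, adjusted p = 0.031), which lost its call when any single array was left out (adjusted p 0.080 to 0.167). The mean of these markers was 7.25 and 7.06 in WT against 8.07 and 7.89 in Tg. Of the 15, 12 had an unadjusted p under 0.05 (11.8% over all genes), and 1 rose (0.672% over all genes). In 14 the groups did not overlap, with Tg higher (18.6% over all genes). The part of leukocytes and macrophages in the osteoclast and TNF receptor values was not tested.

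Genes that respond to prolactin or growth hormone in islets formed a list chosen with their changes in these data known. That choice favours calls, so their number and the list median describe these members only. Of 23 measured members 10 rose and none fell, against 0.672% of all genes higher in Tg. An unadjusted p under 0.05 was found for 15, against 11.8% of all genes. The list median was 0.59 (0.40 without WT replicate 2 and 0.76 without WT replicate 1). Cldn8, a tight junction gene (5.01, SE 0.22), Lrrc55, a potassium channel subunit (4.49, SE 0.16), and Tph1, the enzyme that starts serotonin synthesis (4.0, SE 0.23), rose by more than Tnfrsf11b, as did Matn2, a matrix protein gene (3.50, SE 0.16), and Gbp8 (3.23, SE 0.20). Lrrc55 had a second, dimmer probeset at 0.34 that did not pass. Neb, of the nebulin protein (2.50, SE 0.18), Tph2, the second serotonin-synthesis enzyme gene (1.73, SE 0.15), Ivd, of leucine breakdown (0.96, SE 0.12), and Socs2 (1.10, SE 0.13) and Cish (1.08, SE 0.14), inhibitors of cytokine receptor signalling, rose by less. Leaving out 1 array ended the calls of Cish and Ivd in all 4 cases and that of Socs2 in 3, the exception being WT replicate 2. Tph2 lost its call without WT replicate 2 (adjusted p = 0.055) and without Tg replicate 1 (0.091), and Gbp8 without Tg replicate 1 (0.053). Dimmer probesets of Cish and Socs2 did not pass. With replicate number added to the limma fit, Neb (adjusted p = 0.063), Tph2 (0.066), Ivd (0.140), Socs2 (0.145) and Cish (0.184) did not pass. Ehhadh (0.72, SE 0.10), Igfals (0.59, SE 0.17) and Cdkn1b, a cell cycle inhibitor gene (-0.56, SE 0.10), did not pass. Ghr, the growth hormone receptor (-0.05, SE 0.13), Jak2 (0.08), Stat5a (-0.07) and Stat5b (-0.34) did not pass. Prlr, the prolactin receptor gene, was among the preset partners and is not reported here.

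TRAIL is also a gene that interferons induce. The interferon response list had 19 of 21 measured members above 0 (45.7% over all genes), with a median of 0.35. Of these 21, 11 had an unadjusted p under 0.05 (11.8% over all genes), and 2 rose (0.672% over all genes). The chemokine genes Cxcl10 (1.02, SE 0.13, adjusted p = 0.039) and Cxcl9 (0.94, SE 0.12, adjusted p = 0.043) rose, and none fell. Cxcl9 lost the call without any single array (adjusted p 0.117 to 0.233), and Cxcl10 without WT replicate 2 (0.097), Tg replicate 1 (0.237) or Tg replicate 2 (0.162). Ifit3 was at 0.49 (SE 0.10), Ifit1 at 0.66 (SE 0.14) and Usp18 at 0.54 (SE 0.12), none of them past the test. The part of interferon signalling in the value of Tnfsf10, which did not pass, was not tested.

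Cell cycle genes were followed because RANK signalling is reported to restrain beta cell replication. None of 28 measured members passed (2 at an unadjusted p under 0.05, against 11.8% of all genes), and the median was 0.11. Mcm5, a DNA replication gene, measured 6.75 and 6.99 in WT and 7.63 and 7.25 in Tg (0.57, SE 0.17, adjusted p = 0.266), and Aurkb, a mitotic kinase gene, measured 5.62 and 5.75 in WT and 6.35 and 5.90 in Tg (0.44, SE 0.17, adjusted p = 0.401). The groups of both did not overlap, which held for 8 of the 28 members with Tg higher and for 2 with Tg lower. Over all genes, 18.6% did not overlap with Tg higher. Mki67, a marker of dividing cells, measured 6.43 and 6.68 in WT and 7.51 and 6.65 in Tg, and Top2a measured 5.39 and 5.63 in WT and 6.58 and 5.68 in Tg. In these 4 genes the higher value of the Tg group came from replicate 1, and the list median was 0.0077 without that array. Ccnd2, a cyclin of beta cell replication, stood at -0.26 (SE 0.11).

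**Figure D3:**
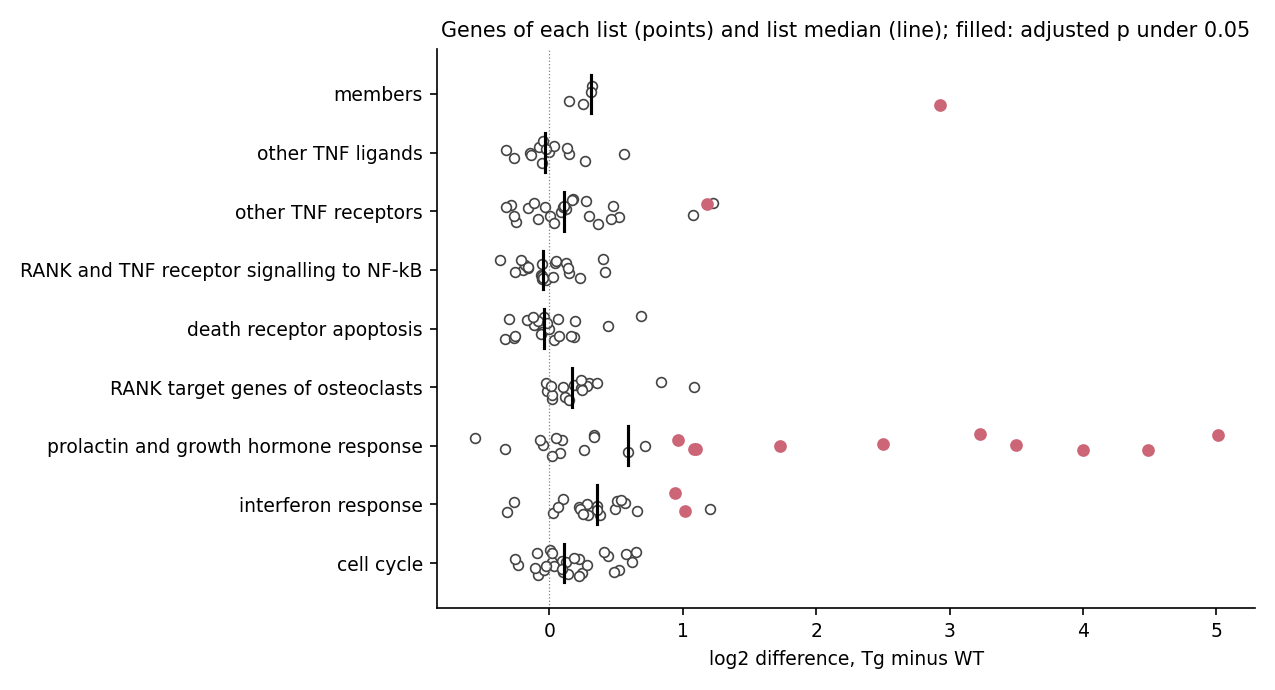
Log2 difference, Tg minus WT, of every measured gene of the 8 pathway lists and of the 5 genes described here (points), with the median of each list as a line; filled points have an adjusted p under 0.05. Filled points lie in 3 of the 8 lists, with 10 in the prolactin and growth hormone list, 2 in the interferon list and 1 among the other TNF receptors. The lists were chosen with earlier results of these data known, so these counts do not rank the pathways.

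The genes closest to Tnfrsf11b in pattern were found by the Euclidean distance between log2 values centred on each gene's mean over the 4 arrays, with predicted genes left out. With 4 arrays this measure mainly finds genes with a difference of like size and little spread. The closest was Rasgrp1, a Ras exchange factor, at 5.94 and 5.90 in WT and 9.0 and 8.72 in Tg (distance 0.18). Adarb2, of the family of RNA-editing enzymes (0.20), Sftpd, a secreted collectin (0.22), and the potassium channel gene Kcnj5 (0.29) followed closely. B3galt1, a glycosyltransferase gene (0.37), and Gbp8, a guanylate-binding protein gene (0.39), were also among the 8. The other members of the 8 were the immunoglobulin kappa segments Igkj1 (0.28) and Igkv6-14 (0.31). Segments of 1 family can be similar in sequence, so such probesets may read more than 1 segment. All 8 had an adjusted p under 0.05, with differences between 2.57 for B3galt1 and 3.23 for Gbp8. Both facts follow largely from how the 8 were chosen. With replicate number added to the limma fit, Igkj1 (adjusted p = 0.076), Sftpd (0.054) and Kcnj5 (0.052) did not pass. Igkj1 lost its call without Tg replicate 1 (adjusted p = 0.064) and without Tg replicate 2 (0.054), and Gbp8 without Tg replicate 1 (0.053).

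**Figure D4:**
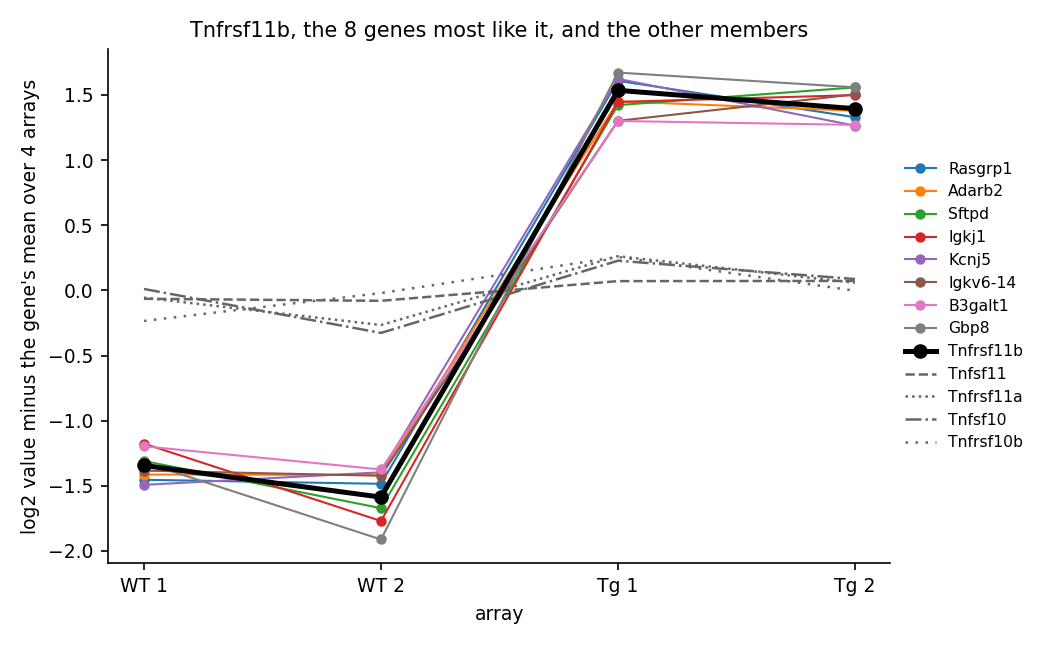
Log2 value minus the gene's own mean over the 4 arrays, for Tnfrsf11b (thick black), the 8 genes most like it (coloured) and the other 4 genes described here (grey, broken lines). The solid lines lie below 0 on both WT arrays and above 0 on both Tg arrays, while the grey lines stay close to 0. The coloured genes were chosen for closeness to Tnfrsf11b, so their like shape follows from that choice.

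Endothelial and mesenchymal cells express osteoprotegerin in many tissues, and their markers were set beside it. Endothelial markers were above 0 for 8 of 8 measured members (45.7% over all genes), with a median of 0.50. Their list means were 8.41 and 8.22 in WT and 8.94 and 8.62 in Tg. None was called, and 5 had an unadjusted p under 0.05 (11.8% over all genes). Mesenchymal markers were above 0 for 9 of 9, with list means of 6.68 and 6.82 in WT and 7.18 and 7.07 in Tg, a median of 0.24 and no call (2 at an unadjusted p under 0.05). Dcn, a proteoglycan of fibroblasts, was the highest of these at 1.79 (SE 0.26, adjusted p = 0.054), and at 2.17 without Tg replicate 2. It passed in limma among genes at or above the median level (adjusted p = 0.040) and with arrays centred on their median (0.044). It also passed with a variance trend (0.032), and with that trend and a robust prior (0.036). The part of these cells in the value of Tnfrsf11b was not tested. In these bulk samples a change in the number of cells of a type and a change in RNA per cell cannot be told apart.

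B and plasma cell markers stood higher in Tg, with 5 of 5 measured members above 0 and a median of 1.71. List means were 6.35 and 6.40 in WT and 8.53 and 8.15 in Tg. All 5 had an unadjusted p under 0.05 (11.8% over all genes), and 1 of the 5 rose (0.672% over all genes). In all 5 the groups did not overlap, with Tg higher (18.6% over all genes). The differences ran from 1.12 to 3.89, with Mzb1 the lowest. Mzb1, a plasma cell gene, rose (1.12, SE 0.11, adjusted p = 0.021), and lost its call when any single array was left out (adjusted p 0.059 to 0.119). T cell markers had list means of 5.77 and 5.61 in WT and 6.56 and 6.09 in Tg. Of these, 6 of 6 were above 0 (45.7% over all genes). None was called, and 4 had an unadjusted p under 0.05 (11.8% over all genes). Natural killer cell markers, a type known for TRAIL, had list means of 5.12 and 5.03 in WT and 5.0 and 5.27 in Tg (3 of 4 above 0, median 0.02, no call and 0 at an unadjusted p under 0.05). That median was 0.26 without Tg replicate 1 and -0.09 without Tg replicate 2, so it has no settled direction. No marker is at 0 on a log2 scale such as this one. The part of these cells in the values of Tnfrsf11b, Tnfsf10 and the TNF receptors was not tested.

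Beta cell markers had list means of 11.26 and 11.04 in WT and 10.94 and 11.05 in Tg. Their median was -0.11 over 8 members (0.04 without WT replicate 1). None of the 8 was called, and 2 had an unadjusted p under 0.05 (11.8% over all genes). Alpha cell markers had a median of -0.67 over 3 members (-0.39 without Tg replicate 1), delta cell markers one of -0.32 over 3 (-0.54 without Tg replicate 1 and -0.18 without Tg replicate 2), and Ppy, the PP cell hormone, a difference of 0.06, with no call among them and 3 at an unadjusted p under 0.05. Acinar markers had a median of 0.07 over 8 members and duct markers one of -0.03 over 5. Of the duct markers, Cftr alone was above 0 and it rose (2.30, SE 0.23, adjusted p = 0.021). The other 4 were below 0, the lowest at -0.67. Cftr lost its call without Tg replicate 1 (adjusted p = 0.137) and without Tg replicate 2 (0.110). These medians were -0.40 and -1.21 without WT replicate 1 and 0.47 and 0.41 without WT replicate 2. The increase of Tnfrsf11b was 2.81 without WT replicate 2, the array with the higher acinar and duct markers, and 3.05 without WT replicate 1.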

How the data were processed

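Islets of 2 WT and 2 Tg arrays (Affymetrix Mouse Gene 2.0 ST) were compared, with 250 ng of total RNA labelled for each, per the labels. The authors deposited log2 values, as read from their range of 2.87 to 13.9. Partek and RMA (robust multi-array average) are named, with no versions, in the submitters' processing notes. No genome build was found in the sources used here. Of 27037 probesets, 23521 named 1 gene, 1814 named several and 1702 none. The brightest probeset stood for each gene, which gave 22180 genes. Differences were fitted with limma 3.58.1 (lmFit, eBayes) in R 4.3.3, and p-values were adjusted after Benjamini and Hochberg over the whole set. Residual degrees of freedom were 2, and the moderation contributed 3.76 more. The number of arrays limits the precision.

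The 5 genes, the 8 pathway lists and the 12 cell type lists were chosen with earlier results of these data known. Of 272 listed symbols, 247 were measured and 25 were not analysed here. The text names the 5 genes, Ffar3, a few preset partners, the called members of each list with up to 3 further ones of smallest p, and the 8 genes most like a called gene. Named outside this rule, after their values were seen, are Fasl, Mki67, Top2a, Ghr, Jak2, Stat5a, Stat5b and the cell type markers. On simulated data of 22180 genes with 2 arrays a group (20 simulations, 200 changed genes), 63.5% of 2-fold changes were recovered and 97.3% of 4-fold ones. Of the calls, 4.74% were false. The simulated errors were independent and normal, with variances from the fitted prior that limma itself uses. These rates therefore follow from that setting and do not measure the false calls among the real arrays. Alternatives covered the probeset rule, a level filter, normalisation, the variance prior, a replicate block and each array left out.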

Additional observations from a re-analysis of the deposited data

How the results depend on the processing

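Across 13 alternatives, all planned, Tnfrsf11b kept its direction and passed the adjusted threshold in 12. Its difference was 2.81 to 3.05 (adjusted p 0.0032 to 0.019) when single arrays were left out in turn, which assumes that a lone array varies as the other group does. Without moderation it was 2.93 (adjusted p = 0.472), and with the replicate block 2.93 (adjusted p = 0.031). Tnfsf11 (0.12 to 0.15; not in the level filter, so 12 alternatives), Tnfrsf11a (0.22 to 0.43), Tnfsf10 (0.15 to 0.48) and Tnfrsf10b (0.13 to 0.38) passed in none and turned sign in none. Against 199 genes in all, the count was 347 under a robust prior with a variance trend. It was 0 without moderation, where 1928 had an unadjusted p under 0.05, 24 with the replicate block and 135, 92, 38 and 55 without WT replicate 1, WT replicate 2, Tg replicate 1 and Tg replicate 2. Replicate differences correlated at -0.063 between the groups, so the numbers are not shown to pair arrays. Of the other named genes, 24 passed and kept the call in 233 of 309 alternatives, none reversed, and 42 did not pass and gained a call in 12 of 537. With an array left out, the ranges that crossed 0 were -0.10 to 0.040 for Traf6, -0.054 to 0.13 for Traf2, -0.77 to 0.20 for Tnfrsf23, -0.16 to 0.13 for Nfatc1, -0.36 to 0.037 for Nfkb2, -0.18 to 0.086 for Ghr, -0.25 to 0.11 for Stat5a, -0.0083 to 0.17 for Jak2, -0.0071 to 0.13 for Ppy and -0.15 to 0.069 for Cflar. Nfatc1 was also 0.0052 after quantile normalisation. The cause was not tested.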
